A study of Rattus norvegicus with 2 samples.

Results

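The cell cycle and DNA replication genes described here are 49 named genes for cyclins, cyclin-dependent kinases (CDKs) and their regulators, replication factors, enzymes that make DNA precursors, and mitosis proteins. They were chosen by name. This choice, like that of the lists and motifs below, was made with earlier results of these data known. Of the 49, 42 have a probe on the array that could be named through its RefSeq transcript accession, among 13837 genes so named. Livers came from Sprague Dawley rats given senecionine, a liver-toxic pyrrolizidine alkaloid of ragwort-type plants, by the intragastric route at 35 mg/kg, and from Sprague Dawley rats given sodium chloride, both taken 36 h after dosing. Tissue of 3 animals was pooled in each group, and each pool was hybridised to 1 one-colour (Cy3) Agilent array. There are therefore no replicates, no difference below has a test or a p-value, and the spread between animals is unknown.

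Cells enter division when D-type cyclins with CDK4 or CDK6, then E-type cyclins with CDK2, release E2F transcription factors from the retinoblastoma protein. E2F factors drive genes of origin licensing and DNA precursor synthesis for S phase, and a later wave of genes, led by cyclin A, cyclin B and CDK1, carries the cell through G2 and mitosis. Adult hepatocytes are mostly quiescent but can re-enter this cycle after injury, whereas resident and incoming blood-derived cells can divide on their own account. Pyrrolizidine alkaloids are known for blocking division of hepatocytes through DNA crosslinks, with enlarged cells as a result.

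Values are given as scaled signal, the processed signal in multiples of its own array's 75th percentile, and as the log2 ratio of senecionine minus control with Agilent's spot error. Scaled signals compare the arrays for 1 probe and do not rank genes against each other. A probe is called detected on an array where Feature Extraction marks it as well above background. A gene counted as measured when a probe of it was detected on both arrays, and the brightest of these probes stands for it. This held for 29 of the 41 members with an unflagged spot, against 57.1% of 13667 genes. Of 43379 spots for transcripts, 64.1% on the senecionine array and 44.4% on the control array were well above background. The lowest signal well above background was 0.0806 on the senecionine array and 0.204 on the control array, so dim transcripts had less chance of being detected on the control array. Over all 7803 measured genes, log2 ratios had a median of -0.14.

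Single genes of several phases had higher signals in senecionine livers, among them Tyms of DNA precursor synthesis, Cdc25b of S/G2 and mitotic entry, Ttk of mitosis, and Wee1, an inhibitor of CDK1. Of 29 measured members, 9 were at least 2-fold higher (31.0%), against 11.2% of all measured genes, and 0 were at least 2-fold lower, against 17.7%. The 9 were Wee1, Rrm1, Tyms, Ccna2, Cdc25b, Rrm2, Ttk, Ccne1 and E2f1. The members' median log2 ratio was 0.66, and 25 of 29 lay above 0 (86.2%), against 43.7% of all measured genes. With median scaling or quantile normalization 24 did, since Kif20a turned below 0. In pooled liver, more cells of a dividing type and more RNA per cell cannot be told apart. Of the other members, 10 were detected in senecionine livers only, Cdc25a and Kif11 on neither array, the spot of Cdc20 carried an outlier flag on the senecionine array, and for 7 no probe was named (Mcm5, Cdc25c, Cdkn3, Mki67, Top2a, Bub1b and Cenpe).

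When all measured genes were split into 4 bins of equal size by mean signal, the bins held 6, 14, 5 and 4 of the 29 members, counted from the dimmest. In bin 2, 7 of the 14 were at least 2-fold higher, against 16.7% of all its genes. In bin 1 it was 1 of 6, against 8.41%, and in bin 3 1 of 5, against 11.9%. In the brightest bin none of 4 members was, against 7.89% of its genes.

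**Figure D1:**
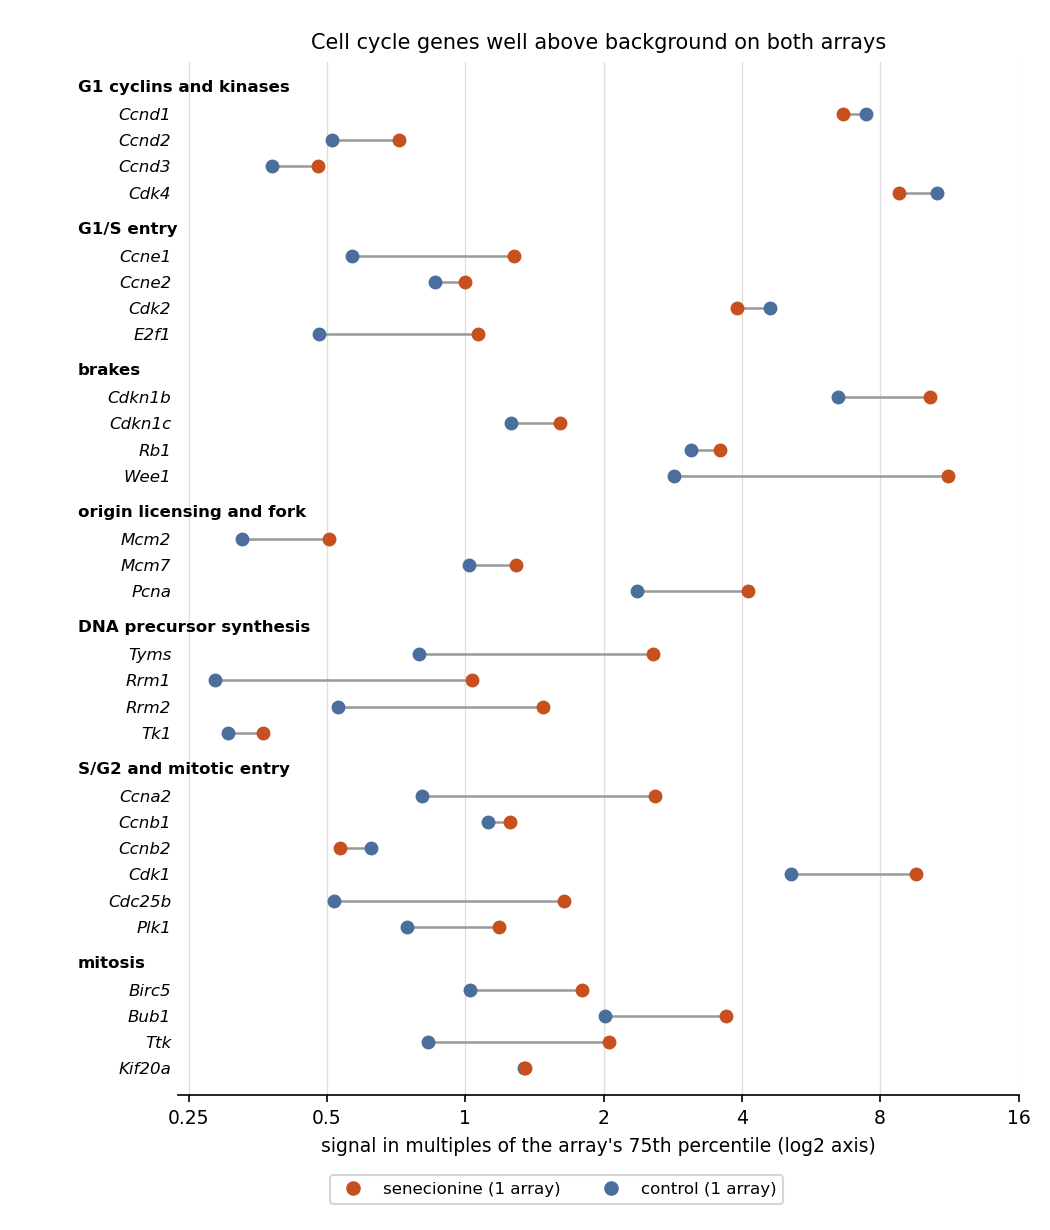
Scaled signal of each of the 29 cell cycle genes detected on both arrays, on a log2 axis, ordered by phase. Each point is 1 array, senecionine in orange and control in blue, and the line joins the pair; the senecionine point lies to the right for 25 genes and to the left for Ccnd1, Cdk4, Cdk2 and Ccnb2.

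The promoters below belong to the members with the highest ratio or lower bound on a ratio among those that RefSeq's promoter table covers, and show which cell cycle motifs stand near their starts. Promoter windows of the GRCr8 build, running from 250 bases before to 50 after the annotated gene start, were found for 37 of the 49 members. For E2F the letters searched were TTGGCGC, as a second form TTCCCGC, as a further form TTCGCGC, and finally TTGCCGC. For the CHR (the cell cycle genes homology region bound by MuvB complexes) they were TTTGAA and as another form TTCGAA. For the factor NF-Y they were CCAAT. Each was searched on both strands. Capitals mark every match, and TTGGCGC and the reverse strand of TTCGCGC can overlap. A match is a description of the letters and not a shown binding site.
Rrm1, chr1:166235654-166235953, + strand: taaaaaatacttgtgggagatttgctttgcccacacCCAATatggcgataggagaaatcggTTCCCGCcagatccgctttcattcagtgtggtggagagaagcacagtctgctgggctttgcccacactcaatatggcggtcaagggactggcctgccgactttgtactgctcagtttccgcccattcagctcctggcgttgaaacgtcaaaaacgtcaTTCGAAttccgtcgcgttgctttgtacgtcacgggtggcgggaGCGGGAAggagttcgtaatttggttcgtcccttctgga
Tyms, chr9:120776034-120776333, - strand: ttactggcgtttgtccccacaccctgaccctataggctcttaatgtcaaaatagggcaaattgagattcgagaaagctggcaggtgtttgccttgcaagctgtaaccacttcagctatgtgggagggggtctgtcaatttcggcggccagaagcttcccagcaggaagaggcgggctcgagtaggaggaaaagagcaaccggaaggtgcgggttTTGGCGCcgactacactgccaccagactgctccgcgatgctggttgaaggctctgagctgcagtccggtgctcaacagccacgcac
Mcm3, chr9:30733697-30733996, - strand: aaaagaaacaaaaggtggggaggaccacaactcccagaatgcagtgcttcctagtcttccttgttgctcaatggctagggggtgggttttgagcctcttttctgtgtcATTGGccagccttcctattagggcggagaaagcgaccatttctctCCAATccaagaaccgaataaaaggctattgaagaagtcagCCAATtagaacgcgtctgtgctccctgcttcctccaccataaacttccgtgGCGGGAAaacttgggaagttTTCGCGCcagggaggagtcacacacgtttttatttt
Cdc25b, chr3:138859923-138860222, + strand: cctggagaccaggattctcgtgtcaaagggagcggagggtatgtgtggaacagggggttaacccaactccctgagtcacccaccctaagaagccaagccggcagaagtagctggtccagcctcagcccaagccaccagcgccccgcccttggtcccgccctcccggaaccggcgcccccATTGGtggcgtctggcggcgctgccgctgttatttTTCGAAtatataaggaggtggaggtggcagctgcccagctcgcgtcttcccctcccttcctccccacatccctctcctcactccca
Mcm6, chr13:42404303-42404602, - strand: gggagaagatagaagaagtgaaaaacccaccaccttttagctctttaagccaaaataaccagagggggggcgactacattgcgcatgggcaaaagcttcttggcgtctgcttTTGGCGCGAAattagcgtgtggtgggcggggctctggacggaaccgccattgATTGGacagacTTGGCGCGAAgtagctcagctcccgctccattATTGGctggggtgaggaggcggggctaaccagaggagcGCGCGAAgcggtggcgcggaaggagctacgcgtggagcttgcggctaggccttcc

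Mcm6 held 5 E2F matches and 2 CCAAT boxes, Mcm3 2 and 3, and Rrm1 2 E2F matches, 1 CHR and 1 CCAAT box. Tyms held 1 E2F match and Cdc25b 1 CHR and 1 CCAAT box. Over the 37 members with a window, 16 held an E2F match (43.2%), against 2749 of the 27457 genes in the table and 13.9% of the genes with a named probe. A CHR match stood in 16 (43.2%), against 19.5% of the table's genes, and a CCAAT box in 26 (70.3%), against 37.7%. Counts differed by phase. E2F matches stood in 7 of 8 windows of origin licensing and fork genes and in 1 of 11 of mitosis genes. They also stood in 2 of 3 windows each of G1/S entry, brakes and DNA precursor synthesis. CHR matches stood in 6 of 7 windows of S/G2 and mitotic entry genes and in 6 of 11 of mitosis genes. They stood in 0 of 2 of G1 cyclins and kinases, a group with few windows. By size of the ratio, an E2F match stood in 2 of 5 members that were at least 2-fold higher and in 7 of 16 measured within 2-fold, and a CHR match in 3 of 5 and 6 of 16.

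**Figure D2:**
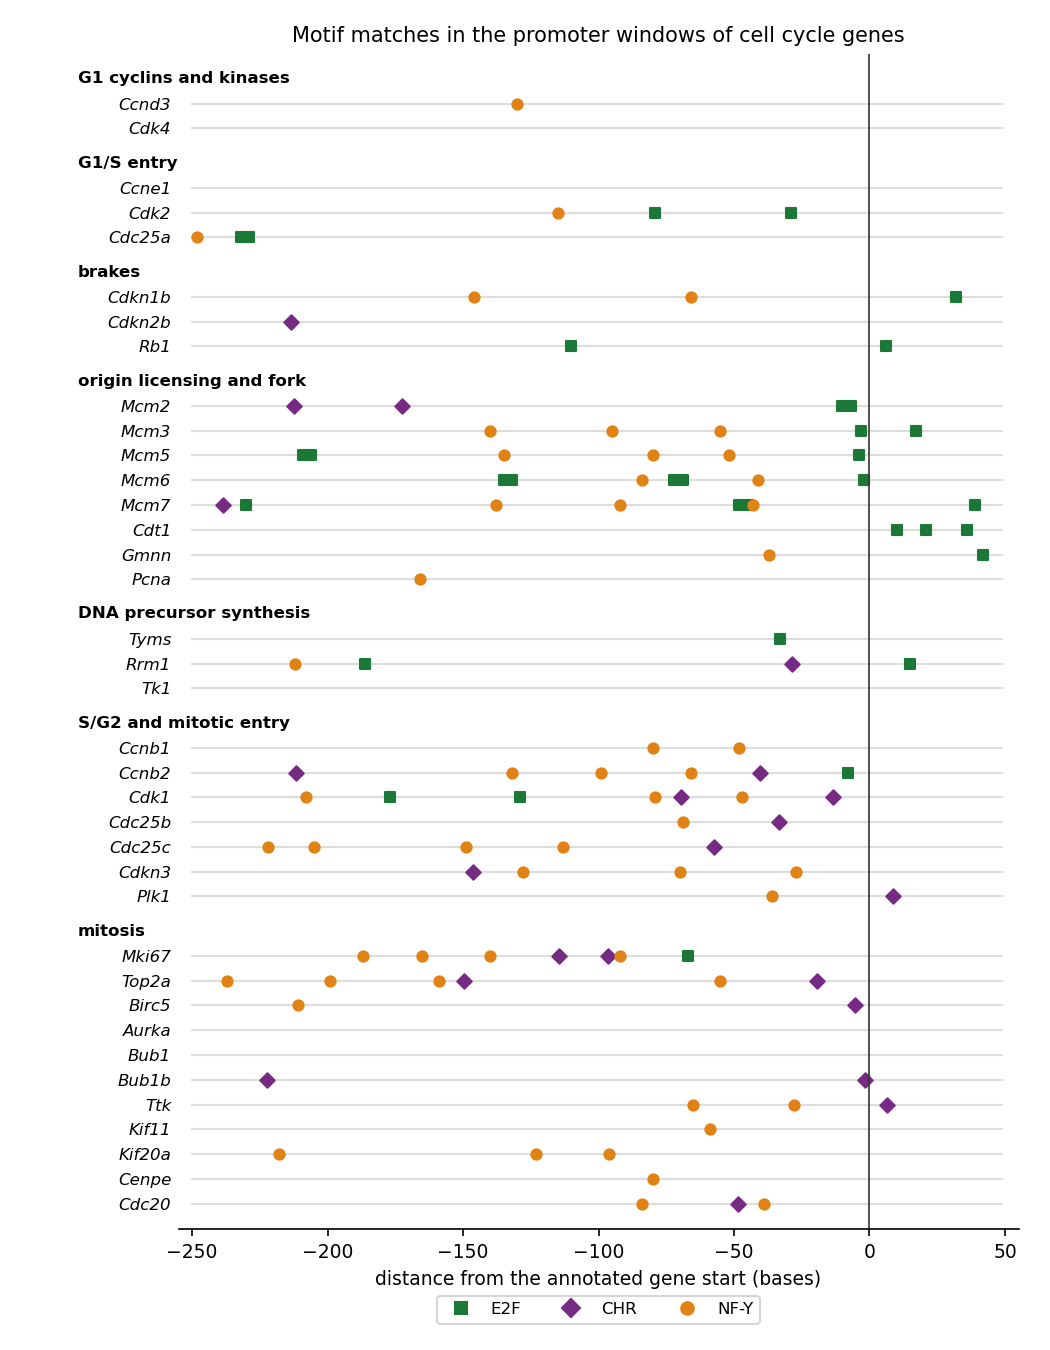
Positions of E2F (square), CHR (diamond) and NF-Y (circle) motif matches in the promoter windows of 37 cell cycle genes, as distance in bases from the annotated gene start, ordered by phase. Squares are most frequent in the origin licensing and fork genes, with 7 of 8 windows holding 1 or more. Diamonds are most frequent in the S/G2 and mitotic entry genes, with 6 of 7, and stand in 6 of 11 windows of mitosis genes.

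Cyclins and kinases of early G1 differed little between the arrays. Ccnd1, the D-type cyclin that mitogens induce in regenerating hepatocytes, had a scaled signal of 6.65 in senecionine livers and 7.46 in control livers (log2 ratio -0.17 ± 0.20), and its other probe had a log2 ratio of 0.08. Cdk4, the kinase partner of D-type cyclins, had 8.79 in senecionine livers and 10.6 in control livers (-0.27 ± 0.20). Ccnd1 and Cdk4 turned to 0.05 and 0.01 with normexp background correction, so neither has a direction. Ccnd2 (0.716 in senecionine, 0.514 in control livers, log2 ratio 0.48 ± 0.24) and Ccnd3 (0.477 and 0.379, 0.33 ± 0.33) lay above 0 and within 2-fold. Cdk6, the other kinase of this step, had a scaled signal of 0.101 on the senecionine array and was undetected in control livers, and no lower bound above 1-fold can be given.

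At the G1 to S transition, Ccne1 and E2f1 were over 2-fold higher, and Ccne2 and Cdk2 were within 2-fold. Ccne1, an E-type cyclin that activates CDK2, had a scaled signal of 1.28 in senecionine livers and 0.567 in control livers, 2.25-fold higher (log2 ratio 1.17 ± 0.23). E2f1, the transcription factor of S phase genes, had 1.07 in senecionine livers and 0.482 in control livers, 2.22-fold higher (1.148 ± 0.246). Both ratios were under 2-fold with normexp correction, at 0.81 and 0.61. The second E-type cyclin Ccne2 had 0.998 in senecionine livers and 0.861 in control livers (0.21 ± 0.22, and -0.11 with normexp correction), within its spot error. Its other probe, detected in senecionine livers only, had 0.176 in senecionine livers and 0.0486 in control livers, with no bound above 1-fold. Cdk2 had 3.90 in senecionine livers and 4.61 in control livers (-0.24 ± 0.20), and its other probe had -0.21. Cdc25a, the phosphatase that activates CDK2, was detected on neither array.

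Among the genes of origin licensing and the replication fork, most were detected in senecionine livers only, and those measured on both arrays were within 2-fold. Pcna, the sliding clamp of the replicative polymerases, had a scaled signal of 4.13 in senecionine livers and 2.37 in control livers (log2 ratio 0.81 ± 0.21), and its dimmer probe was 2.32-fold higher (1.21 ± 0.23). The helicase subunits Mcm2 (0.505 in senecionine, 0.327 in control livers) and Mcm7 (1.29 and 1.02) had log2 ratios of 0.62 ± 0.29 and 0.34 ± 0.23. All 3 of these genes thus lay above 0 and none reached 2-fold on its brightest probe.

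The rest of the licensing group with a named probe was detected in senecionine livers only. For such genes the senecionine signal was set against the higher of the control probe's own signal and 0.204, which gives a lower bound on the fold. Spot error is not carried into these bounds. The helicase subunit Mcm3 had 0.657 in senecionine livers and 0.196 in control livers, at least 3.22-fold higher. Mcm6 had 0.524 on the senecionine array and 0.0446 on the control array, at least 2.57-fold higher. Mcm4 and Cdt1, which loads the helicase, reached bounds of 1.01-fold and 1.33-fold. The brightest probe of Mcm4 had 0.207 on the senecionine array and 0.0491 on the control array, but its other probe had 0.142 and 0.156, so its probes disagree. For Gmnn, the inhibitor of CDT1, the senecionine signal of 0.194 was below 0.204 and gives no bound. Across the module, 10 of those 41 members were detected in senecionine livers only (24.4%), against 19.1% of all genes, and the bound reached 2-fold for 3 of the 10, against 12.2% of such genes. No member was detected in control livers only, against 1.24% of genes. With the same signal limit on both arrays the 10 became 6, and no share over all genes is given for that limit.

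**Figure D3:**
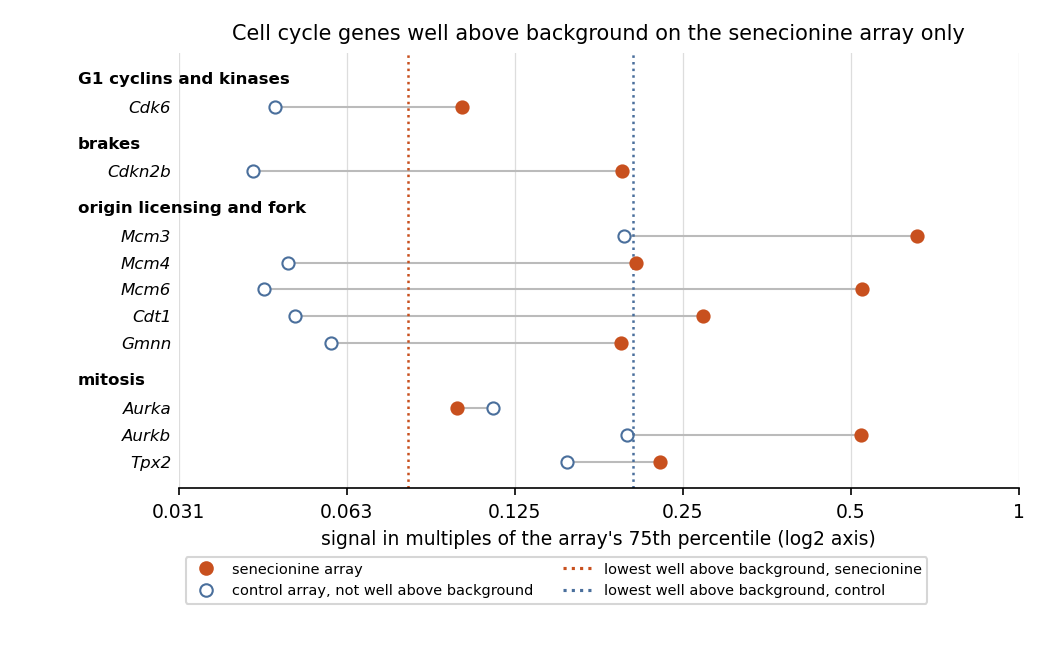
Scaled signal, on a log2 axis, of the 10 cell cycle genes detected in senecionine livers only (filled orange), with the control array's signal as an open circle. Dotted lines mark each array's lowest signal well above background, 0.0806 for senecionine and 0.204 for control; Mcm3, Mcm6 and Aurkb lie furthest beyond the control array's line.

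Of the enzymes that make DNA precursors 3 of 4 were at least 2-fold higher on their brightest probe, with a median log2 ratio of 1.59. This rests on the probe chosen and the background correction. On the dimmest passing probe 1 of 4 was, with a median of 0.47, and with normexp correction 1 of 4, with a median of 0.93. Tyms, thymidylate synthase, had a scaled signal of 2.56 in senecionine livers and 0.794 in control livers (log2 ratio 1.69 ± 0.22). Rrm2, the S phase subunit of ribonucleotide reductase, had 1.48 in senecionine livers and 0.528 in control livers, 2.80-fold higher (1.48 ± 0.23), and 0.69 ± 0.30 on its dimmer probe. Rrm1, the large subunit of that enzyme, had 1.04 in senecionine livers and 0.286 in control livers on its brightest probe. Its probes disagreed most of all the members: 1.86 ± 0.29 on this probe, 0.18 ± 0.30 on a second, and a bound of at least 1.89-fold on another that only the senecionine array detected. With normexp correction Rrm1 and Rrm2 were under 2-fold, at 0.864 and 0.999. Tk1, the thymidine kinase of the salvage route, had 0.363 in senecionine livers and 0.304 in control livers (0.26 ± 0.34), within its spot error.

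The genes of S/G2 and mitotic entry were split. Ccna2, the A-type cyclin of S phase and G2, had a scaled signal of 2.59 in senecionine livers and 0.805 in control livers (log2 ratio 1.68 ± 0.22, and 0.94 with normexp correction). Cdc25b, the phosphatase that starts CDK1 activation, had 1.64 in senecionine livers and 0.518 in control livers (1.66 ± 0.24). Cdk1, the mitotic kinase, had 9.55 in senecionine livers and 5.11 in control livers (0.90 ± 0.20), just under 2-fold, and passed it with cyclic loess (1.03) and normexp (1.04). By contrast the B-type cyclins that activate CDK1 in mitosis did not stand out. Ccnb1 had 1.25 in senecionine livers and 1.12 in control livers (0.16 ± 0.21), and Ccnb2 had 0.534 and 0.625 (-0.23 ± 0.24), both within their spot error. Plk1, the polo-like kinase of mitotic entry, had 1.18 in senecionine livers and 0.746 in control livers (0.66 ± 0.25), and 0.14 on its other probe.

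Of the mitosis genes measured, Ttk was the one past 2-fold in the values reported. Ttk, the MPS1 kinase of the spindle checkpoint, had a scaled signal of 2.06 in senecionine livers and 0.832 in control livers, 2.47-fold higher (log2 ratio 1.31 ± 0.23). The checkpoint kinase Bub1 had 3.69 in senecionine livers and 2.01 in control livers (0.88 ± 0.21), and Birc5, survivin of the chromosomal passenger complex, 1.80 and 1.02 (0.81 ± 0.21). Bub1 and Birc5 lay above 0 and within 2-fold, but with normexp correction Bub1 passed it (1.01) and Birc5 had 0.27. Kif20a, a kinesin of cytokinesis, had 1.35 in senecionine livers and 1.34 in control livers (0.01 ± 0.21). The passenger kinase Aurkb, detected on the senecionine array only, had 0.523 there and 0.199 in control livers. Its bound was at least 2.56-fold before spot error, and the probe's own log2 ratio was 1.40 ± 0.41. Tpx2, an activator of Aurora A, had a bound of at least 1.11-fold (0.228 and 0.155, log2 ratio 0.55 ± 0.49). Aurka itself had 0.0986 on the senecionine array and 0.114 on the control array, where it was undetected, and has no direction. The flagged spot of Cdc20, an activator of the anaphase-promoting complex, had 6.56 on the senecionine array and 5.31 on the control array and was left out.

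The negative regulators included the highest ratio of the module. Wee1, the kinase that holds CDK1 inactive and is also known as a clock-controlled gene in liver, had a scaled signal of 11.3 in senecionine livers and 2.85 in control livers, 3.94-fold higher (log2 ratio 1.98 ± 0.20). Its other probes were detected on the senecionine array only, with bounds of 4.19-fold and 2.41-fold. Cdkn1b (p27), an inhibitor of CDK2 complexes, had 10.3 in senecionine livers and 6.48 in control livers, 1.58-fold higher (0.66 ± 0.20). It is the member spotted repeatedly: over 10 spots of its probe the log2 ratio ran between 0.44 and 0.91 (SD 0.13), and the lowest senecionine spot (9.31) lay above the highest control spot (7.01), which measures variation within the arrays and not between animals. Cdkn1c (p57) had 1.61 in senecionine livers and 1.26 in control livers (0.35 ± 0.22), and 0.24 to 0.69 over its other 3 probes. Rb1, the retinoblastoma protein, had 3.58 in senecionine livers and 3.103 in control livers (0.21 ± 0.20). Cdkn2b (p15), an inhibitor of CDK4 and CDK6, had 0.195 on the senecionine array and has no bound. That signal is below 0.204, the control array's lowest signal well above background.

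Probes of 1 gene gave a measure of how far a single ratio can be trusted. In all, 39 probes of members were detected on both arrays, of which 33 had a log2 ratio above 0 and 10 were at least 2-fold higher. A further 22 probes were detected in senecionine livers only, 0 in control livers only and 4 in neither. These probe counts were not set against all probes. For all transcripts, 64.1% of spots on the senecionine array and 44.4% on the control array were well above background. For the 8 members with more than 1 measured probe, the gap between the highest and lowest log2 ratio had a median of 0.43, close to the 0.44 found over 1377 genes. The gap was over 1 for 1 of the 8, Rrm1 (1.68), and for 236 of the 1377.

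**Figure D4:**
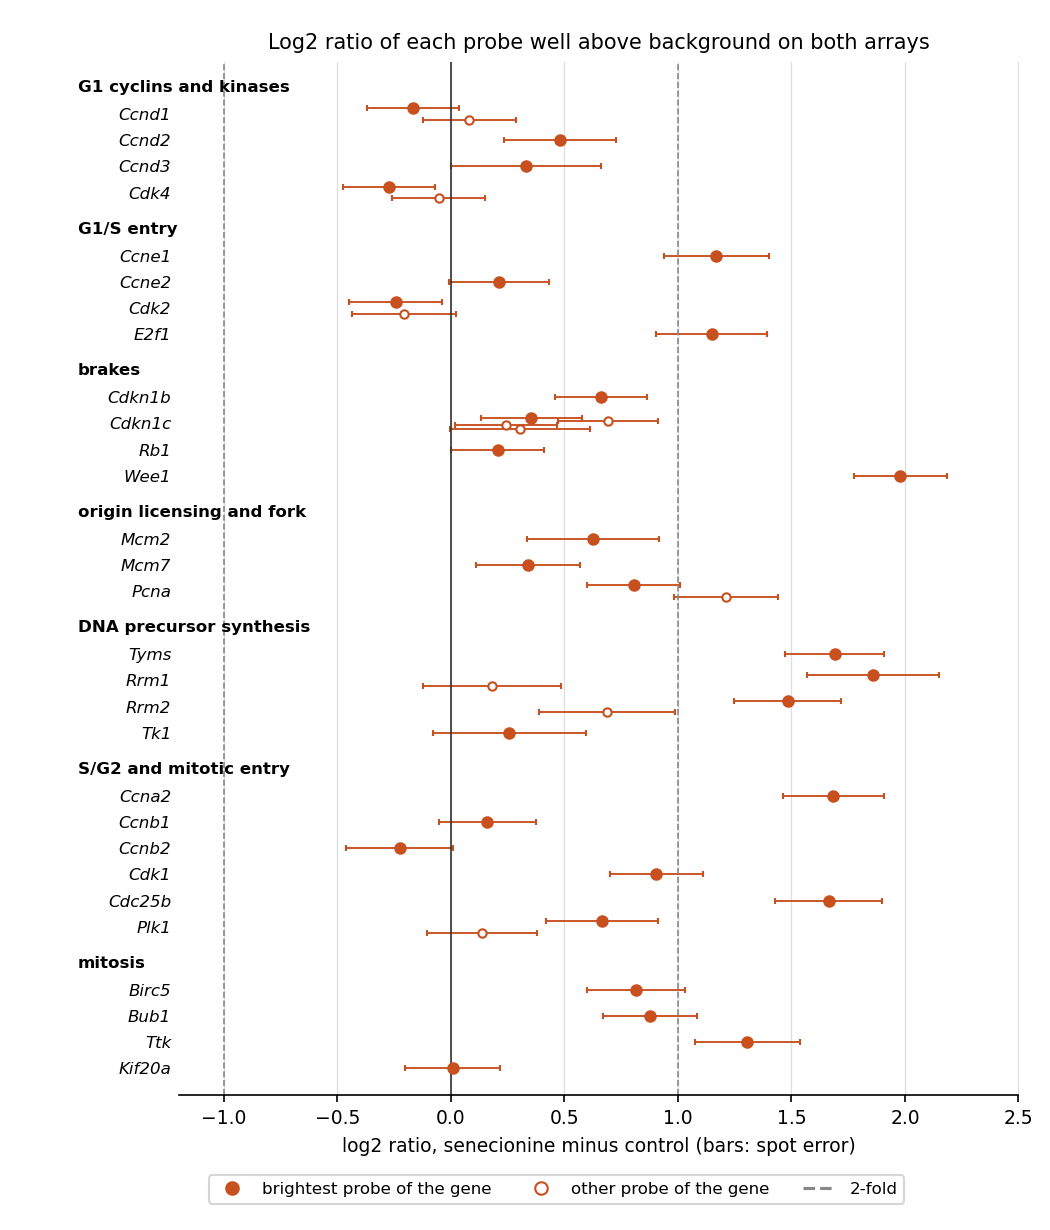
Log2 ratio of senecionine minus control for each of the 39 probes of cell cycle genes detected on both arrays, with Agilent's spot error as bars, ordered by phase. Filled points are the brightest probe of a gene and open points its other probes; dashed lines mark 2-fold. Wee1 lies furthest right at 1.98, and the probes of Rrm1 lie furthest apart.

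The authors' deposited table, a list of 7404 probes that differ by at least 2-fold between the arrays, holds 25 probes of 19 members. In the authors' deposited table all 25 are higher with senecionine, against 54.1% of its probes. It was selected by size from the same 2 arrays, so this is no separate support. Of the 19 members, 11 have a probe in it that was detected on both arrays. They include Cdk1 at a log2 difference of 1.07 and the dimmer Pcna probe at 1.24. Most of the 25 probes were undetected in control livers by the rule used here, such as those of Mcm6 (4.37) and Cdkn2b (3.15).

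Other genes of the pathway, 104 in 3 lists, ranged more widely than the members. Of 50 measured, 10 were at least 2-fold higher (20.0%, against 11.2% of all measured genes) and 0 at least 2-fold lower (against 17.7%, and 1 with median scaling, Rbl2), with a median log2 ratio of 0.15. With normexp correction 4 of the 50 were at least 2-fold higher, against 7.86% of all measured genes. Replication genes outside the module were higher in 4 of 21, with a median of 0.10. These were the single-strand binding subunit Rpa2 (2.46 in senecionine, 0.877 in control livers, log2 ratio 1.49 ± 0.22), the helicase activator Cdc45 (1.13), the origin recognition subunit Orc4 (1.10) and Gins4 (1.04) of the GINS complex. The lowest were the polymerase delta subunits Pold2 (0.673 and 1.08, -0.68 ± 0.22) and Pold3 (-0.22) and the clamp loader Rfc1 (-0.31).

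Mitosis genes outside the module were higher in 5 of 15, with a median of 0.52. Ckap2, a spindle-associated protein, stood apart at 10.3-fold higher, with 4.29 in senecionine livers and 0.417 in control livers (log2 ratio 3.36 ± 0.26). Separase (Espl1) had a log2 ratio of 1.70, the kinetochore subunit Spc25 1.46, the kinesin Kif22 1.32 and the ubiquitin-conjugating enzyme Ube2c 1.02. At the low end were Ube2s (-0.50), Cks1b (-0.31), Incenp (-0.25) and Pttg1 (-0.06). Of 14 measured regulators 1 was past 2-fold. This was Cdkn1a (p21), the CDK inhibitor induced by p53, with 112 in senecionine livers and 2.71 in control livers, 41.4-fold higher (5.37 ± 0.20). After it came the CDK7 partner Ccnh (0.79), the E2F partner Tfdp1 (0.78) and Chek1 (0.24). The lowest were the retinoblastoma-like protein Rbl2 (7.11 and 13.1, -0.88 ± 0.20), E2f3 (-0.58), Tfdp2 (-0.39) and Cdkn2d (-0.17).

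**Figure D5:**
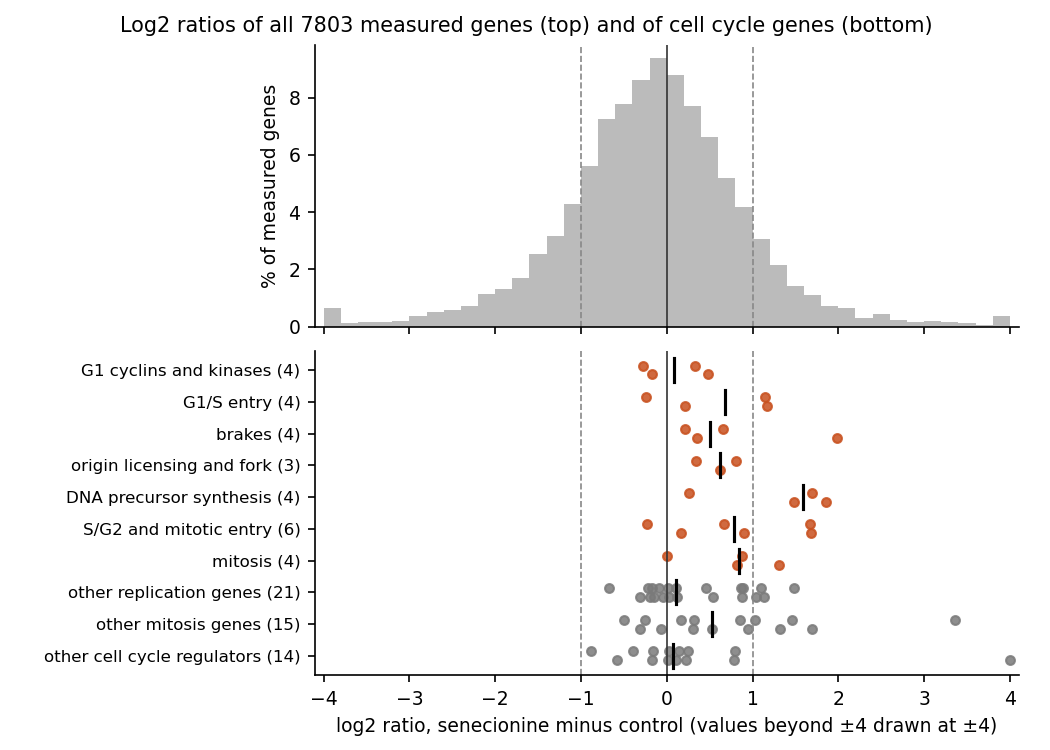
Top, share of the 7803 measured genes in each 0.2-wide interval of log2 ratio, senecionine minus control; bottom, 1 point per measured cell cycle gene by phase group (orange) and by list of other cell cycle genes (grey), with the list's median as a black bar and the number measured in brackets. Dashed lines mark 2-fold; DNA precursor synthesis lies at a median of 1.59 on these brightest probes (0.47 on the dimmest passing ones), and no cell cycle gene lies left of the 2-fold line, which Rbl2 passes with median scaling.

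Markers of other cell types differed between the arrays beside these genes, and their part in the result was not tested. Of 6 measured leukocyte markers 3 were at least 2-fold higher in senecionine livers, against 11.2% of all measured genes. They were Itgb2 (1.73), Cd3g (1.68) and Cd68 (1.06), and the lowest of the 6 was Csf1r (-0.58). A further 4, including Ptprc and Itgam, were detected in senecionine livers only (36.4%, against 19.1% of all genes). For 3 of these 4 the bound reached 2-fold. The summed scaled signal of the 6 was 70.2 in senecionine livers and 33.7 in control livers. Bile duct markers Epcam (2.54) and Krt19 (1.66) and the erythroid marker Alas2 (1.52) were higher too. Of stellate cell and fibroblast markers Dcn was the highest (3.56) and Lrat the lowest (-2.33). Of the endothelial markers Kdr was the 1 measured, at -2.89, and Pecam1 and Tek were detected on neither array. Cdh5 was detected in senecionine livers only (0.206 and 0.152), with a bound of 1.01-fold. Of 8 hepatocyte markers 4 were measured, the lowest being Alb at 419 in senecionine livers and 920 in control livers (-1.14) and the highest Apob at 411 and 283 (0.54), and the other 4 had no unflagged spot. Of 5 measured neural markers 4 were at least 2-fold lower with senecionine, against 17.7% of all measured genes. The lowest was Mag (-4.05) and the highest Mog (-0.97, and -0.006 on its other probe). Gfap (0.100) and Syt1 (0.0965) were detected in senecionine livers only and have no direction. Both signals are below 0.204, the control array's lowest signal well above background. Snap25, Nefm and Olig1 were detected in control livers only, as were 1.24% of all genes. The summed scaled signal of the 5 measured neural markers was 1.55 in senecionine livers and 8.03 in control livers.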

How the data were processed

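RNA of 2 pooled liver samples was measured on 1 Agilent array each. The authors' deposited spot intensity values come from Agilent Feature Extraction 10.7.3.1, per the file headers and the submitters' processing notes, and carry no scaling between arrays. Both arrays share 1 scan time, per the file headers. The 75th percentile of intensity was 134 units for senecionine and 101 for control, and negative control spots had an SD of 2.0 and 3.39 units. The authors' deposited table holds log2 values whose scaling and centring are not given in the sources used here (column medians 6.10 for senecionine and 6.03 for control). Its smallest absolute difference is 1.0001, and all 7355 of its probes compared here had the same sign as the scanner values.

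Processed signals were divided by each array's 75th percentile and taken to log2. Control spots and outlier-flagged spots (497 on the senecionine array, 522 on the control array) were left out, and spots of a probe were averaged. Of 40516 probes, 17250 were named, as 13667 genes, through RefSeq transcript accessions without versions and the GRCr8 gene table. The array design rests on a different build, and no probe coordinates are printed. The first promoter window listed for a gene was used. Spot error is the error of Feature Extraction carried to the ratio and covers error within the arrays only, and precision is limited by the number of arrays. The counting was tested on simulated data. Normexp correction was planned on mean signals but ran on median signals with an offset of 50, as the scanner files hold no means.

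Members, lists and motifs were chosen with earlier results of these data known. Named genes were all members, up to 4 highest and 4 lowest per list of other cell cycle genes, the highest and lowest of each marker list, and Cdkn1a, apart from items that are not reported here. Ube2c, Foxm1, genes named for a bound, and marker genes between the highest and lowest were named after their values were seen. Tools were limma 3.58.1 in R 4.3.3, and matplotlib 3.10.9, pandas 2.3.3 and numpy 2.4.6 in Python 3.11.15.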

Additional observations from a re-analysis of the deposited data

How the results depend on the processing

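No paired analysis was possible because each group has 1 array, and no replicate could be left out. Median scaling, quantile normalization, cyclic loess and normexp background correction gave 9, 9, 10 and 6 members at least 2-fold higher against 9 as reported, with 0 lower in each. In the same order, 9.11%, 12.1%, 12.4% and 7.86% of all measured genes were higher. The shares lower were 21.3%, 16.4%, 16.8% and 9.75%. Of the 9 members reported as higher, 4 stayed past 2-fold in all 4 settings: Wee1, Tyms, Cdc25b and Ttk. With median scaling all measured genes had a median log2 ratio of -0.26, against -0.14 as reported, and the members' median lay 0.80 above that of all genes in both. With quantile, cyclic loess and normexp it lay 0.73, 0.77 and 0.62 above. Of the 29 single-member log2 ratios, normexp moved 13 by more than 0.22, the dimmest passing probe 5 and the mean over probes 3. Both probe settings leave the 21 members with 1 measured probe as they are, and the filters on dim probes leave all 29 as they are by construction.

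Counts moved most with the filter on dim probes and the fold chosen. Members at least 2-fold higher were 16 of 39 when detection on 1 array was enough (22.6% of all genes) and 16 of 41 with no filter (17.5% of all genes), where 1 was lower. At 1.5-fold 16 of 29 were higher (21.0% of all genes) and at 4-fold 0 of 29 (2.73%). With the same signal floor on both arrays 6 members were on the senecionine array only, with no share over all genes given. In the authors' deposited values 11 members were measured, with a median of 1.54, since that table was selected at 2-fold. Other cell cycle genes at least 2-fold higher were 4 of 50 with normexp correction (7.86% of all genes), against 10 of 50 as reported (11.2%). With detection on 1 array or no filter 26 were higher, against 22.6% and 17.5% of all genes. When positive and significant on both arrays 20 were, against 15.3% of all genes. Of the 50, 17 were higher at 1.5-fold (21.0% of all genes) and 2 at 4-fold (2.73%). The shares of all genes thus moved with the filter and the fold too. Other cell cycle genes at least 2-fold lower were 1 with median scaling (21.3% of all genes) and 2 at 1.5-fold (31.1%). When positive and significant on both arrays 1 was lower (17% of all genes), and with no filter 3 were (22%). The median of the other cell cycle genes was 0.495 with detection on 1 array and 1.27 in the authors' deposited values. Apart from the filters, the fold and the authors' selection, whose construction changes which genes count, the cause was not tested. Normexp with its offset draws dim ratios towards 0 by construction. On the senecionine array only, 5 of 8 licensing genes (62.5%) and 3 of 8 mitosis genes (37.5%) were detected, against 19.1% of all genes. The lowest signal well above background was 0.0806 on that array and 0.204 on the control array.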

Other observations

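Of the other cell cycle genes, 25 were detected (well above background) in senecionine livers only and 0 in control livers only, and 4 of the 25 had a lower bound of at least 2-fold. Among genes with an unflagged spot these are 30.5% of 82, against 19.1% of all genes, and 0, against 1.24%. The 4 are 16% of the 25, against 12.2% over all such genes, with spot error left out of the bounds. The 4 are named after their values were seen. Mybl2, the B-Myb factor that acts with MuvB on genes of G2 and mitosis, had a scaled signal of 1.41 in senecionine livers and 0.0738 in control livers, at least 6.89-fold higher. The cytokinesis kinesin Kif23 was at least 3.996-fold higher, with 0.816 on the senecionine array and 0.190 on the control array. The origin recognition subunit Orc2 was at least 3.39-fold higher (0.738 and 0.217) and the mitotic kinase Pbk at least 2.56-fold (0.522 and 0.0770). By contrast Foxm1, another factor of that wave, was measured on both arrays at 1.01 in senecionine livers and 0.936 in control livers (log2 ratio 0.11 ± 0.23).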
